A study of Mus musculus with 5 samples.

Results

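Fatty acid and triglyceride genes were examined in 5 bulk RNA-seq libraries of mouse mammary luminal cells, the epithelial cells that line the ducts and alveoli and secrete milk. The set held 45 genes of fatty acid uptake, activation, synthesis, desaturation, elongation, triglyceride assembly, oxidation and their regulation. It was chosen by gene name among the 24319 genes of the deposited table and all 45 were found there. Of these, 44 had a mean of at least 1 FPKM (fragments mapped to a gene, scaled by transcript length and library size) over the 5 libraries, a minimum that 11481 genes passed. *Mlxipl* was the member below it.

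Libraries 1, 2 and 3 are labelled wild type and libraries 4 and 5 *Brca1* knockout, all of mixed strain. In the study's model *Brca1* is deleted by Cre under the mouse mammary tumor virus promoter (*MMTV-Cre*) in mice with floxed *Brca1* and a membrane reporter at *Rosa26*, and the luminal cells were sorted as CD24 high and CD29 low. The paper describes the bulk luminal cells as BRCA1-deficient, against the label of replicates 1, 2 and 3. The study took glands from virgin and from pregnant adult mice, and the stage behind each of these libraries is not given in the sources used here. The labels do not say whether the libraries came from separate animals, so any p-value measures only the spread between them.

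*Brca1* itself read 1.30, 1.32 and 0.23 FPKM in wild type replicates 1 to 3 and 1.20 and 1.34 FPKM in *Brca1* knockout replicates 4 and 5, so its level did not separate the labels. Epithelial identity was clear in every library, with the luminal keratin gene *Krt8* between 2240 and 3653 FPKM. Replicate 3 stood apart from the others: Pearson's r of log2(FPKM + 1) with another library was at most 0.931 for it and up to 0.974 among the others (taken across genes, so not over independent replicates). Results are therefore given with and without it. The table gives no read totals. Depth relative to replicate 1 was inferred from the steps between low FPKM values. It was 2.08 and 4.82 for wild type replicates 2 and 3 and 1.01 and 3.39 for *Brca1* knockout replicates 4 and 5. By this estimate replicate 3 was also the deepest library.

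Milk fat is mostly triglyceride. Secretory luminal cells take up preformed fatty acids, which lipoprotein lipase frees from circulating lipoproteins, and also build fatty acids from acetyl-CoA through ATP citrate lyase, acetyl-CoA carboxylase and fatty acid synthase. In the mammary gland the thioesterase encoded by *Olah* ends chain growth early and yields the medium-chain fatty acids typical of milk. Acyl chains are then esterified in turn by glycerol-3-phosphate acyltransferases, acylglycerolphosphate acyltransferases, lipins and diacylglycerol acyltransferases, and the transcription factor SREBP1, encoded by *Srebf1*, drives many of these genes.

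Promoter sequence is shown for 4 members, which are not those with the largest differences below. They are *Fasn* and *Acly* of de novo synthesis and *Acsl1* of activation, which were low in replicate 3, and *Lpin2*, which was high there. Each is the 250 bases before a RefSeq transcription start in GRCm38.p6, 5′ to 3′ on the gene's strand, and overlaps no GENCODE M21 exon. Capitals mark matches on either strand to any of 5 motifs: the E-box CACGTG, the CCAAT box CCAAT, the sterol regulatory element core TCACNCCAC, the GC box GGGCGG and the STAT5 site TTCNNNGAA. The *Fasn* window is chr11:120824548-120824797 (minus strand), the *Acly* window chr11:100528001-100528250 (minus strand), the *Acsl1* window chr8:46490716-46490965 (plus strand, the second of its starts) and the *Lpin2* window chr17:71183282-71183531 (plus strand, the first of its 3 starts).
Fasn: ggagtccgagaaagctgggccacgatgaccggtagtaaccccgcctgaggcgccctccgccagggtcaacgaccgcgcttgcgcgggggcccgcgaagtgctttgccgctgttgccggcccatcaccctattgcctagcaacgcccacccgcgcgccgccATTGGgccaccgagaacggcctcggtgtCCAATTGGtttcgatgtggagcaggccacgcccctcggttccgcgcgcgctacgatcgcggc
Acly: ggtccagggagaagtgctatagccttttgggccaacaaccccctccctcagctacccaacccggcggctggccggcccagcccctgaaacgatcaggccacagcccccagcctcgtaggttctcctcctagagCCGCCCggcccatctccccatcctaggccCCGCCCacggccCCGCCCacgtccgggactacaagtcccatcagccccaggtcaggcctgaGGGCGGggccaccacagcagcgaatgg
Acsl1: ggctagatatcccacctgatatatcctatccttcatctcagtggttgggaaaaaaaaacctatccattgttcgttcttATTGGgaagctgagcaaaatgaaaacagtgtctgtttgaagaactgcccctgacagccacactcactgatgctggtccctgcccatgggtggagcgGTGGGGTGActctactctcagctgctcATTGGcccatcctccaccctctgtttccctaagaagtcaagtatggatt
Lpin2: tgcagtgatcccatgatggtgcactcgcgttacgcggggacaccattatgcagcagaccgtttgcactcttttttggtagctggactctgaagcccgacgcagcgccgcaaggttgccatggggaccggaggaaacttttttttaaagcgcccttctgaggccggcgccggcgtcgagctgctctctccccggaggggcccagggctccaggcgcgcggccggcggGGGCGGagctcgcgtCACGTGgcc

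The *Fasn* window held 3 CCAAT matches, a pair of which overlap on opposite strands, and the *Acly* window 4 GC boxes and no CCAAT match. The *Acsl1* window shown, picked with its matches known, held the sterol core at -76 to -68 from the start together with a pair of CCAAT matches, while the window of its first start held 4 GC boxes and neither of these motifs. The *Lpin2* window shown held an E-box at -9 to -4 and a GC box, and those of its other starts no E-box. RefSeq windows were at hand for 37 members and counted by gene over all starts. A GC box was present in 24 of the 37 (64.9%) against 35.4% of all 27025 genes with such a window, and a CCAAT box in 21 (56.8%) against 37.5%. An E-box was present in 4 members (10.8% against 6.86%), namely *Elovl5*, *Lpin2*, *Mlxipl* and *Slc27a1*. The sterol core was found in *Acsl1* and *Mlxipl* (5.41% against 1.22%) and the STAT5 site in *Agpat1* (2.70% against 8.13%). These are matches of letters, and the comparison set includes genes not expressed in these cells. *Gpd1*, *Fads1*, *Scd2*, *Dgat2*, *Lpl*, *Dgat1*, *Scd1* and *Fabp5* had no entry.

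The members were more abundant than most genes in these cells. Their median level was 4.88 in log2(FPKM + 1), against 3.24 over all genes tested. Summed over the 45 genes, expression was 4917, 4196 and 1852 FPKM in wild type replicates 1 to 3 and 3798 and 4154 FPKM in *Brca1* knockout replicates 4 and 5. As a share of all FPKM this was 0.731%, 0.750% and 0.352% in libraries 1 to 3 and 0.596% and 0.813% in libraries 4 and 5, so replicate 3 was lowest on both scales. In bulk samples such as these, fewer cells of a type and less RNA per cell cannot be told apart. *Fabp3* was the first contributor outside replicate 3. It made up 36.4%, 38.6%, 19.9% and 28.3% of the sum in replicates 1, 2, 4 and 5, with *Scd1* second in replicate 4 at 14.9%, while in replicate 3 it made up 7.53% and *Scd1* 40.5%.

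**Figure D1:**
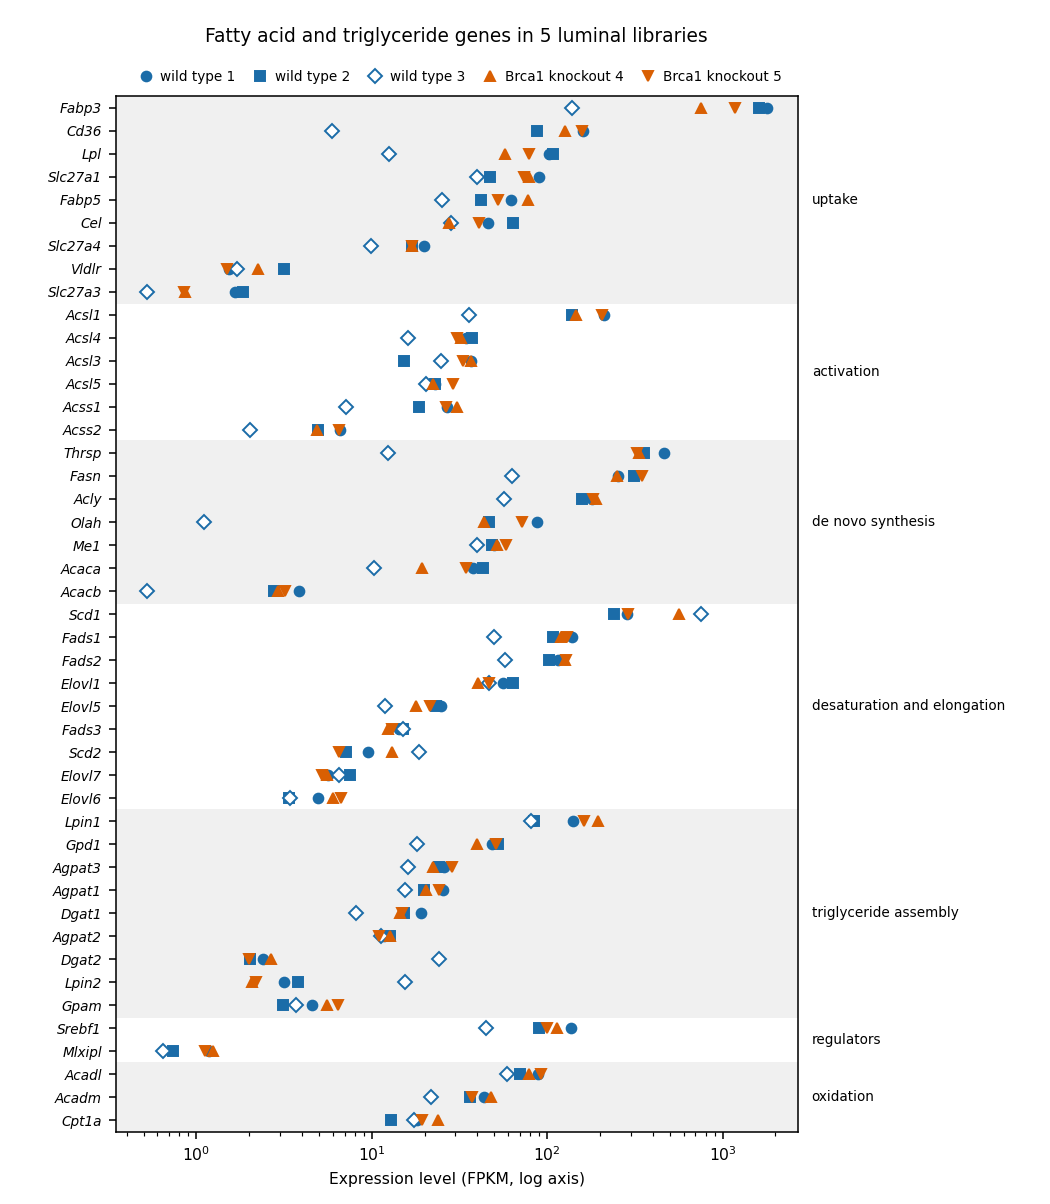
Expression of the 45 members in each library, in FPKM on a log axis, grouped by role; points are libraries, blue for the label wild type (open diamonds: replicate 3) and orange for *Brca1* knockout. Replicate 3 lies left of the other 4 libraries for most members and right of them for *Scd1*, *Scd2*, *Dgat2* and *Lpin2*.

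In the library labelled wild type replicate 3 lay the lowest value of 30 of the 44 members tested, where 51.8% of all genes tested were lowest in it. It held the highest value of 5 members (background 18.5%) and lay within the range of the others for 9. On the log2(FPKM + 1) scale 18 members were more than 1 below the mean of the other libraries in replicate 3 (40.9%), against a background of 9.05%. In the opposite direction 3 members were more than 1 above it (6.82%), against 7.02%. These shares set genes of unlike level side by side, with a median of 4.88 for the members and 3.24 for all genes. The scale understates changes of low genes, so a fall of more than 1 is harder to reach for them. The median difference of replicate 3 from the others was -0.79 over the members, with an interquartile range of -1.37 to -0.23, and -0.27 over all genes. Relative to the median of all genes the members were therefore at -0.52, and this was -0.49 after median-of-ratios scaling and -0.52 after quantile normalization, which moved the median of all genes to -0.03 and -0.12. With 1 library there is no test of these differences.

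The shortfall was unequal between roles. The median difference of replicate 3 was -1.64 for the 7 genes of de novo synthesis, -1.08 for the 6 of activation, -0.81 for the 9 of uptake, -0.50 for the 9 of triglyceride assembly, -0.46 for the 3 of oxidation and -0.13 for the 9 of desaturation and elongation. Relative to all genes the last group was at 0.14, and its sign was positive without that correction under median-of-ratios scaling (0.14), where the other groups stayed negative. With the mean in place of the median, triglyceride assembly turned to 0.07, de novo synthesis was at -2.41 and uptake, at -1.57, passed activation, at -1.09. With a minimum of 5 FPKM uptake also passed activation, at -1.15 against -1.01. The place of oxidation rests on 3 genes, and 19 further oxidation genes outside the set had a median of -0.73.

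**Figure D2:**
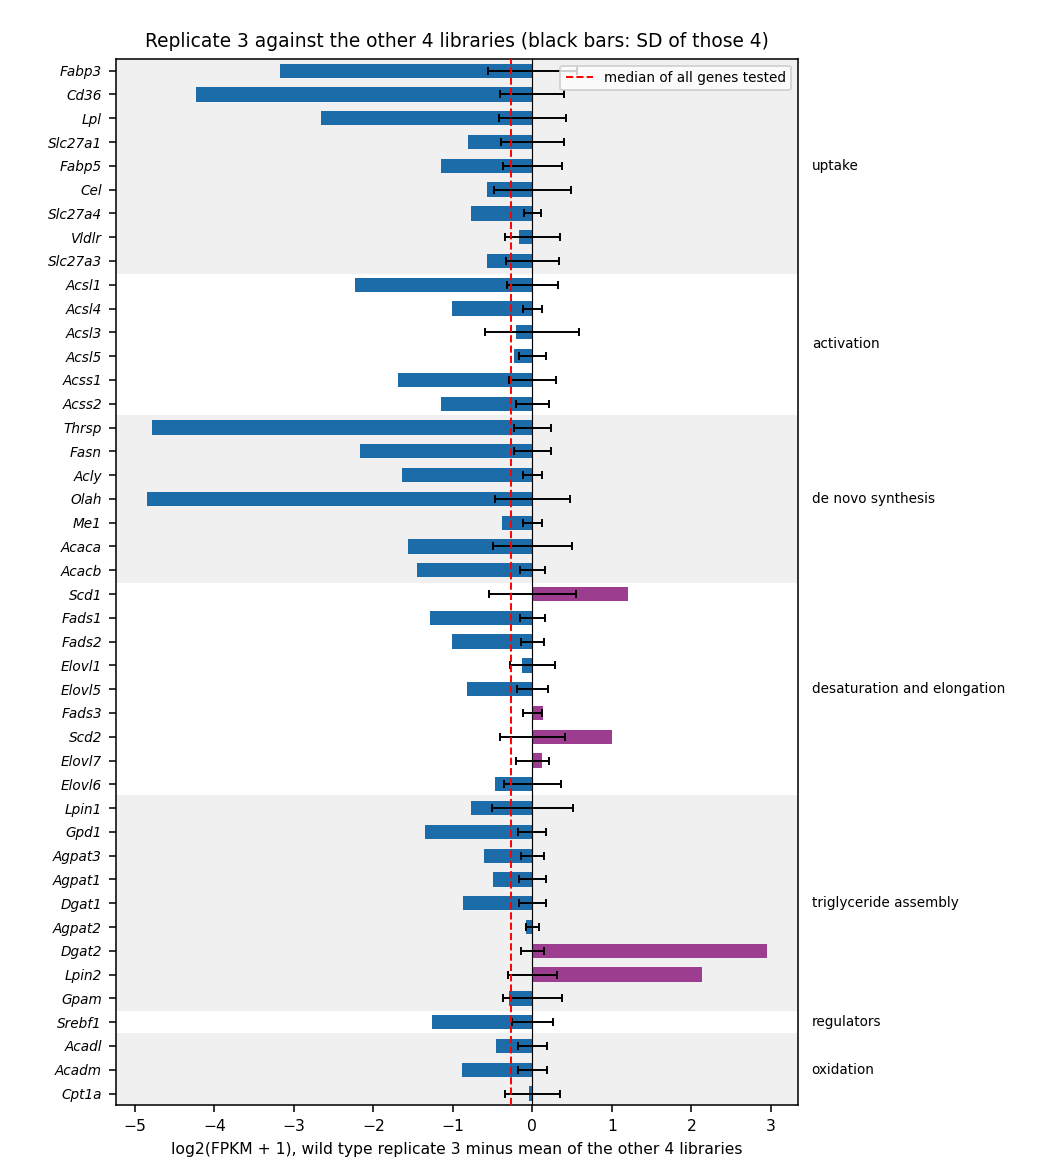
Difference in log2(FPKM + 1) between replicate 3 (labelled wild type) and the mean of the other 4 libraries for the 44 members tested; coloured bars are the difference, black bars the SD of the other 4 libraries drawn around 0, and the red dashed line is the median of all genes tested (-0.27). *Olah*, *Thrsp* and *Cd36* extend beyond -4 and *Dgat2* reaches 2.95.

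Among the uptake genes, *Fabp3*, a cytosolic fatty acid binding protein, was the most abundant member. It read 1792, 1619 and 139 FPKM in wild type replicates 1 to 3 and 755 and 1176 FPKM in *Brca1* knockout replicates 4 and 5. *Cd36*, a fatty acid translocase of the plasma membrane, read 159, 87.2 and 5.94 FPKM in libraries 1 to 3 and 127 and 157 FPKM in libraries 4 and 5. *Lpl*, the lipoprotein lipase that frees fatty acids from circulating triglyceride, read 103, 109 and 12.5 FPKM in libraries 1 to 3 and 57.1 and 79.2 FPKM in libraries 4 and 5. All 3 genes were lowest in replicate 3, where the mean of the other libraries was 9.57-fold, 22.3-fold and 6.96-fold higher. Without it the labels overlapped for *Cd36* but not for *Fabp3* and *Lpl*, which were lower in both libraries labelled *Brca1* knockout. *Fabp5*, a second binding protein, was at 25.1 FPKM in replicate 3 and at 41.7 to 77.6 FPKM elsewhere, so the ratio of *Fabp3* to *Fabp5* was 5.55 in replicate 3, against 9.72 to 38.8 in the others.

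Of the fatty acid transport proteins, *Slc27a3* was lower than *Slc27a1* and *Slc27a4* in every library. *Slc27a1* ranged from 39.9 to 89.8 FPKM and *Slc27a4* from 9.93 to 19.9 FPKM, while *Slc27a3* ranged from 0.52 to 1.85 FPKM. All 3 were lowest in replicate 3. The ratio of *Slc27a1* to *Slc27a4* was 4.01 there, within its range of 2.78 to 4.67 elsewhere. *Vldlr*, a lipoprotein receptor, was low throughout, at no more than 3.14 FPKM. *Cel*, the bile salt-stimulated lipase that is secreted into milk, ranged from 27.6 to 63.5 FPKM, with replicate 3 at 28.5 FPKM beside replicate 4 at 27.6 FPKM. *Vldlr* and *Cel* were the uptake genes not lowest in replicate 3.

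Activation of fatty acids to acyl-CoA rests on the long-chain acyl-CoA synthetases. *Acsl1*, the most abundant, read 211, 139 and 35.8 FPKM in wild type replicates 1 to 3 and 146 and 205 FPKM in *Brca1* knockout replicates 4 and 5. *Acsl4*, which prefers arachidonic acid, was at 16.1 FPKM in replicate 3 and at 30.5 to 37.2 FPKM elsewhere. *Acsl5*, also lowest in replicate 3, was at 20.5 FPKM there and from 22.3 to 29.2 FPKM in the others, and *Acsl3* ranged from 15.2 to 36.9 FPKM with its lowest value in replicate 2. The ratio of *Acsl1* to *Acsl5* was 1.75 in replicate 3, against 6.05 to 9.15 in the other libraries. The acetyl-CoA synthetases *Acss1* (mitochondrial) and *Acss2* (nuclear and cytosolic) were at 7.12 and 2.02 FPKM in replicate 3, against 18.6 to 30.7 and 4.85 to 6.55 FPKM elsewhere.

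All 7 genes of de novo synthesis had their lowest value in replicate 3, and 6 of them were more than 1 below the mean of the others on the log2 scale. *Acly*, which makes cytosolic acetyl-CoA from citrate, read 181, 158 and 56.5 FPKM in wild type replicates 1 to 3 and 190 and 184 FPKM in *Brca1* knockout replicates 4 and 5. *Acaca*, the cytosolic acetyl-CoA carboxylase, read 37.9, 43.3 and 10.3 FPKM in libraries 1 to 3 and 19.4 and 34.5 FPKM in libraries 4 and 5. *Fasn*, the fatty acid synthase, read 253, 314 and 63.4 FPKM in libraries 1 to 3 and 251 and 349 FPKM in libraries 4 and 5. In each of these genes replicate 3 lay below the range of the others, whose mean was 3.16-fold, 3.27-fold and 4.60-fold higher, and *Acaca* was also uneven among those. *Acacb*, the carboxylase isoform tied to mitochondria and the control of oxidation, was much lower than *Acaca* in every library, at 0.52 FPKM in replicate 3 and at 2.76 to 3.84 FPKM elsewhere. *Me1*, the malic enzyme that supplies NADPH, was the exception in size, at 39.6 FPKM in replicate 3 and at 48.6 to 58.2 FPKM elsewhere.

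*Thrsp* (chromosome 7 of mm10, 97412938 to 97417730, minus strand) and *Olah* (chromosome 2, 3341982 to 3397210, minus strand), which are closely tied to milk fat, showed the largest differences of all members. *Thrsp* (Spot 14), a lipogenic regulator of the lactating gland, read 465, 358 and 12.4 FPKM in wild type replicates 1 to 3 and 335 and 326 FPKM in *Brca1* knockout replicates 4 and 5. *Olah* read 87.3, 46.7 and 1.10 FPKM in libraries 1 to 3 and 43.4 and 71.4 FPKM in libraries 4 and 5. The mean of the other libraries was 30.0-fold higher than replicate 3 for *Thrsp* and 56.6-fold higher for *Olah*. Among those other libraries the highest value was 1.42-fold and 2.01-fold above the lowest. Both differed more than the synthase they act with. The ratio of *Thrsp* to *Fasn* was 0.195 in replicate 3, against 0.935 to 1.83 elsewhere, and that of *Olah* to *Fasn* was 0.017 against 0.149 to 0.345.

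The stearoyl-CoA desaturases, which introduce the double bond of oleic acid, went the other way. *Scd1* and *Scd2* lie near each other on chromosome 19 of mm10, at 44394455 to 44407879 (minus strand) and 44293674 to 44306864 (plus strand). *Scd1* read 286, 240 and 750 FPKM in wild type replicates 1 to 3 and 566 and 288 FPKM in *Brca1* knockout replicates 4 and 5. *Scd2* read 9.56, 7.15 and 18.5 FPKM in libraries 1 to 3 and 13.1 and 6.54 FPKM in libraries 4 and 5. Both were highest in replicate 3 under each scaling tried, and replicate 4 was the next highest for each. The ratio of *Scd2* to *Scd1* hardly moved, at 0.025 in replicate 3 and between 0.023 and 0.033 elsewhere. These paralogs share long stretches of sequence, and whether reads were shared between them in the authors' counting was not tested. Against the synthase the contrast was wide, with a ratio of *Scd1* to *Fasn* of 11.8 in replicate 3 and between 0.764 and 2.25 in the others.

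The front-end desaturases of polyunsaturated fatty acid synthesis did not follow *Scd1*. *Fads1* read 139, 108 and 49.9 FPKM in wild type replicates 1 to 3 and 120 and 130 FPKM in *Brca1* knockout replicates 4 and 5. *Fads2* read 115, 103 and 57.9 FPKM in libraries 1 to 3 and 126 and 128 FPKM in libraries 4 and 5. Their neighbour *Fads3*, in the same stretch of chromosome 19 (10041569 to 10060110, with *Fads2* at 10062765 to 10101746 and *Fads1* at 10182888 to 10196877), was even, between 12.4 and 15.2 FPKM. So *Fads1* and *Fads2* were lowest in replicate 3 and *Fads3* was highest there by a narrow margin. Among the elongases, *Elovl1*, which acts on saturated very long chains, ranged from 40.3 to 63.8 FPKM, and *Elovl7* from 5.23 to 7.52 FPKM. *Elovl5*, which extends polyunsaturated chains, was at 11.9 FPKM in replicate 3 and at 17.9 to 24.9 FPKM elsewhere. *Elovl6*, which extends palmitate to stearate, read 4.95, 3.36 and 3.41 FPKM in libraries 1 to 3 and 6.05 and 6.69 FPKM in libraries 4 and 5, higher in both libraries labelled *Brca1* knockout.

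Triglyceride assembly held both lower and higher members in replicate 3. *Dgat1* and *Dgat2* encode unrelated enzymes for the same final step, the esterification of diacylglycerol, and lie on chromosome 15 (76502015 to 76511953) and chromosome 7 (99153658 to 99182719), both on the minus strand. *Dgat1* read 19.0, 15.2 and 8.18 FPKM in wild type replicates 1 to 3 and 14.5 and 14.8 FPKM in *Brca1* knockout replicates 4 and 5. *Dgat2* read 2.41, 2.03 and 24.2 FPKM in libraries 1 to 3 and 2.68 and 1.99 FPKM in libraries 4 and 5. In the other 4 libraries *Dgat1* was the higher of the pair, with a ratio of *Dgat2* to *Dgat1* between 0.127 and 0.186, and in replicate 3 *Dgat2* was, with a ratio of 2.96. This ratio was 16.0-fold above the highest of the others. The level of *Dgat2* outside replicate 3 rested on few fragments, an estimated 34.3 in replicate 1.

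The lipins, phosphatidate phosphatases that make diacylglycerol, differed in direction. *Lpin1* read 141, 84.6 and 81.1 FPKM in wild type replicates 1 to 3 and 195 and 163 FPKM in *Brca1* knockout replicates 4 and 5. *Lpin2* read 3.14, 3.78 and 15.4 FPKM in libraries 1 to 3 and 2.07 and 2.19 FPKM in libraries 4 and 5. *Lpin1* remained the more abundant in every library, while the ratio of *Lpin2* to *Lpin1* was 0.190 in replicate 3, against 0.011 to 0.045 elsewhere. *Gpam*, the mitochondrial glycerol-3-phosphate acyltransferase, read 4.55, 3.11 and 3.71 FPKM in libraries 1 to 3 and 5.57 and 6.46 FPKM in libraries 4 and 5. *Agpat1* ranged from 15.5 to 25.4 FPKM, *Agpat2* from 11.1 to 12.7 FPKM and *Agpat3* from 16.2 to 28.8 FPKM. *Agpat2* had the smallest SD among the other libraries of any member tested, at 0.09 in log2(FPKM + 1). *Gpd1*, which makes glycerol 3-phosphate, was at 18.2 FPKM in replicate 3 and at 40.0 to 52.6 FPKM elsewhere.

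**Figure D3:**
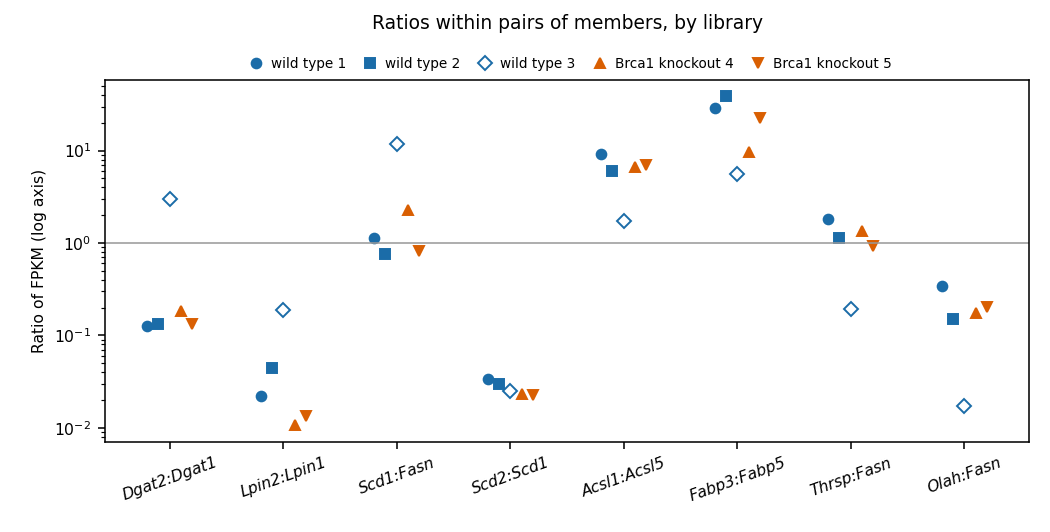
Ratio of FPKM within 8 pairs of members in each library, on a log axis; points are libraries, blue for the label wild type (open diamonds: replicate 3) and orange for *Brca1* knockout, and the grey line marks 1. Replicate 3 lies outside the range of the others in each pair but *Scd2*:*Scd1*, and *Dgat2*:*Dgat1* is above 1 in replicate 3 alone.

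Of the regulators, *Srebf1* read 136, 89.9 and 44.9 FPKM in wild type replicates 1 to 3 and 114 and 99.3 FPKM in *Brca1* knockout replicates 4 and 5. *Mlxipl*, which encodes the carbohydrate-responsive factor ChREBP, read 1.17, 0.73 and 0.64 FPKM in libraries 1 to 3 and 1.25 and 1.12 FPKM in libraries 4 and 5. Thus *Srebf1* was abundant and low in replicate 3, whereas *Mlxipl* was low throughout and rested on an estimated 26.7 fragments in replicate 1. *Cpt1a*, which admits long-chain acyl groups to mitochondria, read 18.0, 12.9 and 17.5 FPKM in libraries 1 to 3 and 24.0 and 19.3 FPKM in libraries 4 and 5, and its difference in replicate 3 changed sign with scaling (-0.05 as deposited, 0.21 with median-of-ratios scaling and 0.15 with quantile normalization). *Acadl*, a long-chain acyl-CoA dehydrogenase, read 88.9, 70.1 and 59.3 FPKM in libraries 1 to 3 and 78.9 and 92.5 FPKM in libraries 4 and 5. *Acadm*, the medium-chain enzyme, ranged from 36.3 to 47.8 FPKM outside replicate 3 and was at 21.7 FPKM in it.

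The comparison of the labels asked whether the members differed with *Brca1* genotype. With limma (log2(FPKM + 1), Benjamini-Hochberg adjustment over 11481 genes, threshold 0.05) 0 members and 0 of all genes were called (background 0%), and without replicate 3 the counts were again 0 and 0 (background 0%). At an unadjusted p under 0.05 there were 3 members (6.82%) and 372 genes (3.24%) with all libraries, and 5 members (11.4%) and 842 genes (7.33%) without replicate 3. Of the 44 members tested, 5 were under it without replicate 1 (868 of 11481 genes) and 0 without replicate 2 (228 genes). With library weights 13 members were, but so were 2799 of the 11481 genes. The lowest adjusted p of a member from limma was 0.92 with all libraries, 0.67 without replicate 3 and 0.11 with library weights. With all libraries the 3 members were *Lpin1*, *Elovl6* and *Gpam*, all higher in both libraries labelled *Brca1* knockout. Their differences were 0.84 (SE 0.30), 0.60 (SE 0.23) and 0.56 (SE 0.22) in log2(FPKM + 1), and without replicate 3 they were 0.70 (SE 0.29), 0.53 (SE 0.22) and 0.55 (SE 0.22), no longer under that threshold (unadjusted p of 0.079, 0.073 and 0.067 from limma). Without replicate 3 the 5 members were instead *Slc27a3*, *Lpl*, *Elovl1*, *Lpin2* and *Fabp3*, all lower in both libraries labelled *Brca1* knockout. The sum of 10 proliferation genes was 118 and 172 FPKM in those libraries, against 76.9 and 77.7 FPKM in wild type replicates 1 and 2, and its part in these differences was not tested.

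Differences between the labels also moved with replicate 3. The median difference over the members, *Brca1* knockout minus wild type, was 0.33 with it and 0.00 without it, where the medians of all genes were 0.11 and 0.03. *Fabp3* was at 0.35 (SE 1.19) with it and at -0.85 without it, and *Thrsp* at 1.34 (SE 1.60) with it and at -0.30 without it. *Cd36* was at 1.63 (SE 1.35) with it and at 0.26 (SE 0.34) without it, in the same direction. All 3 were uneven within the label wild type, and limma called none of them.

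With all libraries the labels did not overlap for 10 members. Of these, 7 were higher in the libraries labelled *Brca1* knockout (*Acly*, *Me1*, *Elovl6*, *Fads2*, *Gpam*, *Lpin1* and *Cpt1a*), or 15.9% against a background of 17.5%, and 3 were lower (*Elovl7*, *Fads3* and *Lpin2*), or 6.82% against 5.77%. Both shares were near the background. Without replicate 3, 8 members were higher without overlap, the 7 above and *Scd1* (18.2% against a background of 23.5%), and 13 were lower (29.5% against 15.6%). The 13 were *Lpl*, *Cel*, *Slc27a3*, *Fabp3*, *Acsl4*, *Acaca*, *Thrsp*, *Elovl1*, *Elovl5*, *Elovl7*, *Fads3*, *Lpin2* and *Dgat1*, none of which passed the test.

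**Figure D4:**
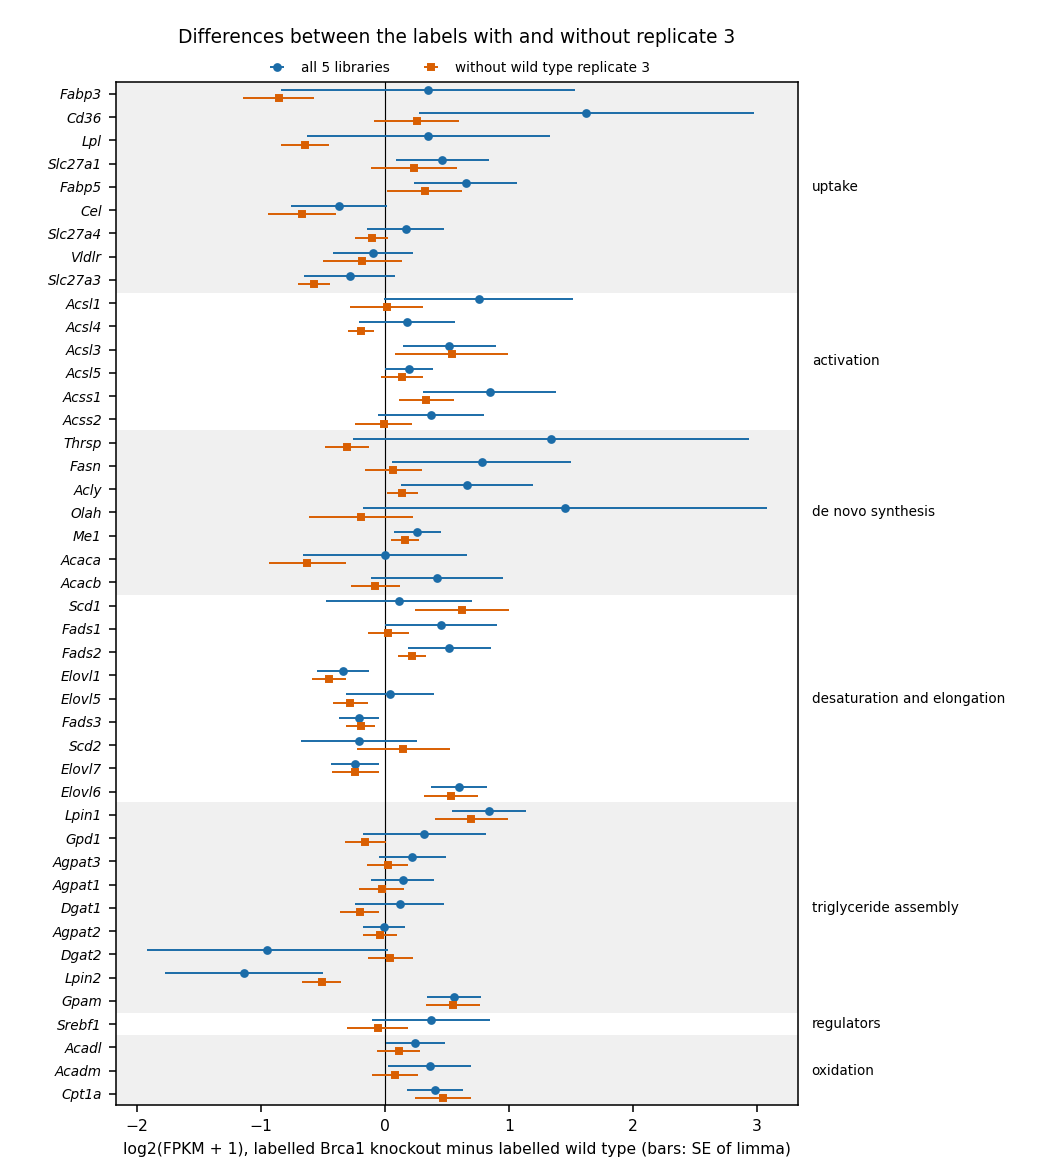
Difference in log2(FPKM + 1) between libraries labelled *Brca1* knockout and wild type for the 44 members tested, with all 5 libraries (blue circles) and without replicate 3 (orange squares); bars are the SE of limma. The orange points spread around a median of 0.00, and the blue bars of *Olah*, *Thrsp* and *Cd36* are the longest.

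Other genes of the same pathways, from lists of related function, were read in the same fit, and 0 of them were called between the labels. Their counts stand beside the background of 51.8% of all genes tested that were lowest in replicate 3. Of 12 further synthesis genes at or above 1 FPKM, 7 were lowest in replicate 3, and the desaturase paralogs *Scd3* and *Scd4* were highest in it. The acyl-CoA synthetase gene *Acsbg1* and *Hacd4* averaged 0.58 and 0.90 FPKM in the other libraries and passed the minimum only through replicate 3, where they were high, so nothing is read from their place. *Tecr*, the reductase that completes each elongation cycle, ranged from 83.6 to 157.5 FPKM with its lowest value there. Of 7 further uptake and binding genes, 4 were lowest in replicate 3. *Dbi*, the acyl-CoA binding protein, was at 198 FPKM in replicate 3 and at 767 to 1072 FPKM elsewhere. Of 12 further genes of triglyceride assembly and lipid droplets, 7 were lowest there. The counts of uptake and binding and of triglyceride assembly were near the background. The synthesis count includes *Acsbg1* and *Hacd4*, which could not be lowest in replicate 3, so it was not read against the background. *Plin2*, which coats the droplets of milk-secreting cells, read 1198, 1043 and 337 FPKM in wild type replicates 1 to 3 and 906 and 1110 FPKM in *Brca1* knockout replicates 4 and 5.

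Among 23 further regulators 16 were lowest in replicate 3 and 5 highest. *Elf5*, a transcription factor of alveolar secretory cells, was at 102 FPKM there and between 244 and 338 FPKM elsewhere, and *Stat5a*, the mediator of prolactin signalling, was at 35.8 FPKM against 43.3 FPKM or more. Of 19 further oxidation genes 18 were lowest in replicate 3, with *Etfa*, the electron transfer flavoprotein subunit, at 56.5 FPKM against 91.1 to 102.2 FPKM. Thus the oxidation genes beyond the set were also low in that library. Of 5 further genes of triglyceride breakdown 4 were lowest there, among them the adipose triglyceride lipase *Pnpla2* (103 FPKM against 145 to 165 FPKM). Of 5 genes of NADPH supply 4 were lowest, including *Idh1*, the cytosolic isocitrate dehydrogenase (1.76 FPKM against 6.78 to 9.90 FPKM), while *G6pdx*, glucose-6-phosphate dehydrogenase, was highest (36.0 FPKM against 19.3 to 30.2 FPKM).

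Markers of other cells and states moved with replicate 3. The 8 mature luminal (hormone-sensing) markers had a summed level in it of 610 FPKM against 27.9 to 52.2 FPKM elsewhere. Besides *Pgr*, the progesterone receptor gene, the other 7 were highest there. Their most abundant gene *Areg* was at 229 FPKM there, *Pgr* was at 27.1 FPKM there and under 1 FPKM in the others, so it passed the minimum only through replicate 3, and none of them was under 1 FPKM in every library. Of 10 milk protein genes 8 were lowest in it, with a sum of 29042 FPKM against 69070 to 91622 FPKM and *Csn2* at 10569 FPKM against 25327 to 31978 FPKM, while *Lalba* and *Btn1a1* were highest there. All 10 proliferation genes were lowest in it, with a sum of 5.11 FPKM against 76.9 to 172 FPKM. Without replicate 3 their median difference, *Brca1* knockout minus wild type, was 0.78, and 0 passed the adjusted threshold of limma. Of 9 luminal markers 7 were highest in it, with a sum of 11636 FPKM against 7317 to 8211 FPKM. The part of these shifts in the members' levels and in their differences between the labels was not tested.

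Adipocytes express many of the members. Of 11 adipocyte markers 9 (*Adipoq*, *Plin1*, *Plin4*, *Cidec*, *Cfd*, *Lep*, *Retn*, *Car3* and *Adrb3*) were under 1 FPKM in every library and *Lep* was at 0 in all. The sums were 23.9, 57.1 and 42.0 FPKM in wild type replicates 1 to 3 and 22.0 and 21.3 FPKM in *Brca1* knockout replicates 4 and 5. Most of it was *Lipe* (18.0 to 23.0 FPKM), and *Fabp4* in replicate 2. *Fabp4* was at 36.7 FPKM in replicate 2, 17.9 FPKM in replicate 3 and 2.05 to 4.74 FPKM elsewhere. Leukocyte markers, led by *Cd74*, summed to 30.7, 986 and 269 FPKM and to 31.3 and 475 FPKM, and fibroblast markers, led by *Dcn*, to 3.46, 115 and 95.2 FPKM and to 4.01 and 13.3 FPKM. The part of these lists in the members' levels was not tested. Endothelial markers (led by *Vwf*) summed to 24.1 FPKM in replicate 3 and to 0.82 to 11.6 FPKM elsewhere, basal markers (led by *Krt14*) to 18.7 FPKM against 49.6 to 152 FPKM, and luminal progenitor markers to 2290 FPKM against 2603 to 3538 FPKM. Most of this last sum was *Csn3* (1738 to 2891 FPKM), also on the milk list, and of the 6 progenitor markers 2 were lowest and 3 highest in replicate 3, with a median difference of 0.34 from the other libraries.

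**Figure D5:**
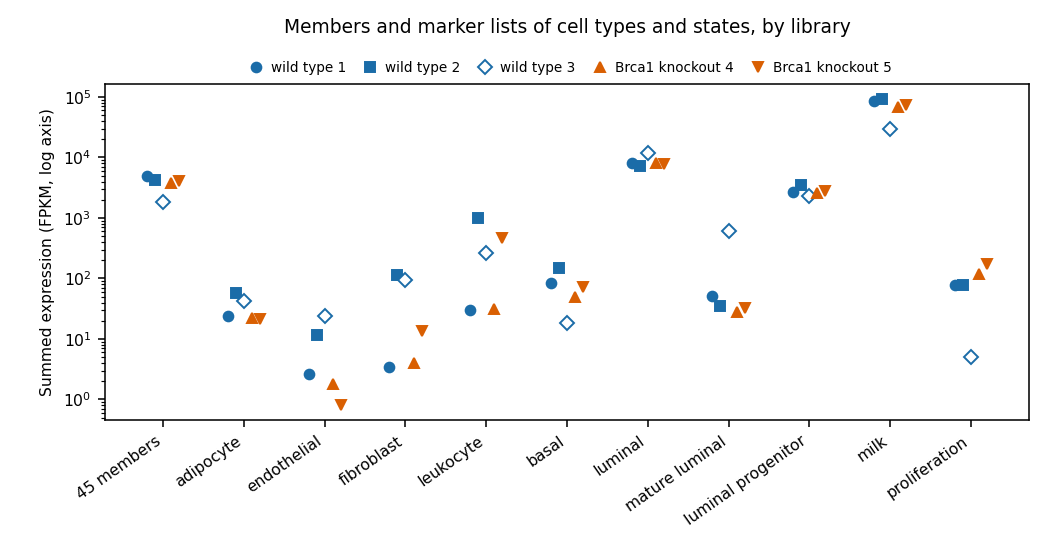
Summed FPKM of the 45 members and of 10 marker lists in each library, on a log axis; points are libraries, blue for the label wild type (open diamonds: replicate 3) and orange for *Brca1* knockout. Replicate 3 has the lowest sum for the members, basal, luminal progenitor (mostly *Csn3*, also on the milk list), milk and proliferation lists and the highest for the luminal, mature luminal and endothelial lists.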

How the data were processed

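Bulk RNA-seq of 5 libraries of sorted luminal cells was analysed as deposited. Per the labels, the tools were Trimmomatic 0.35, TopHat2 2.0.13 and Cufflinks 2.2.1, with reads aligned to mm10. The paper's methods name another TopHat release. The deposited values are FPKM per gene, with no counts or read totals. Of 24346 rows, 27 whose gene name had become a date were left out.

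FPKM were analysed as log2(FPKM + 1), which understates changes of low genes. Labels were compared with limma 3.58.1 (lmFit, then eBayes with its trend option; R 4.3.3). The 11481 genes averaging 1 FPKM or more entered the fit, and p-values were adjusted by Benjamini-Hochberg with a threshold of 0.05. The fit was checked on simulated data with the same noise in every library. That check does not cover a library that stands apart, as replicate 3 did. With 3 libraries against 2, members were read from this fit and no list was tested. Members are reported by role, all with values or ranges. The members, gene lists, markers and motifs were chosen with earlier results of these data known, and the pairs set as ratios after their values had been seen. Table names *Agpat9*, *Agpat6* and *Gyk* were matched through RefSeq synonyms. Promoter windows come from RefSeq on GRCm38.p6 and exons from GENCODE M21.

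Relative depth was inferred from the steps between low FPKM values, each multiplied by transcript length, in 103 to 167 genes per library. Between 52.6% and 57.3% of values lay within 0.15 of a whole multiple, so counts were not recovered, and estimated fragments give counting error only. Alternatives were another pseudocount (0.1), scaling by median-of-ratios or quantiles, other filters (none, or a mean of 5 FPKM), limma without a trend or with library weights, the mean for the median, and each library left out. Scripts ran in Python 3.11.15 with matplotlib 3.10.9, numpy 2.4.6 and pandas 2.3.3.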

Additional observations from a re-analysis of the deposited data

Results flagged for a closer look

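In 15 of the 44 members tested (34.1%) 1 library lay far from the other 4, judged by the gap to its nearest neighbour as a share of the whole range (Dixon's test at 0.71), with the 5 libraries taken as 1 group. In each the library was replicate 3, labelled wild type. Chance gives about 1 group in 20, and 1491 of all 11481 genes tested met the same criterion, of which 1212 (10.6% of the genes tested) did so through replicate 3.

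The low values in replicate 3 were those of *Cd36* (5.94 FPKM) and *Slc27a4* (9.93 FPKM) in uptake, of *Acsl1* (35.8 FPKM), *Acsl4* (16.1 FPKM) and *Acss2* (2.02 FPKM) in activation, and of *Acly* (56.5 FPKM), *Acacb* (0.52 FPKM), *Fasn* (63.4 FPKM), *Olah* (1.10 FPKM) and *Thrsp* (12.4 FPKM) in de novo synthesis. The desaturases *Fads1* (49.9 FPKM) and *Fads2* (57.9 FPKM) and the glycerol-3-phosphate dehydrogenase gene *Gpd1* (18.2 FPKM) were low as well. High values were found in *Lpin2* (15.4 FPKM) and *Dgat2* (24.2 FPKM).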

How the results depend on the processing

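No member was called between the labels under any alternative run. Of all genes, limma called 1 with library weights and 0 to 18 when 1 library was left out, the 18 without *Brca1* knockout replicate 4, 4 without *Brca1* knockout replicate 5 and 2 without wild type replicate 1, where a label with 1 library is assumed to vary like the other. The median difference of the members between the labels was 0.14 with library weights and between 0.0027 (without wild type replicate 3) and 0.51 (without wild type replicate 1) when 1 library was left out. *Fabp3* reversed to -0.71 with library weights and to -0.85 without replicate 3, and *Thrsp* to -0.031 and -0.30. With 1 library left out they reached 0.98 and 2.26 without wild type replicate 1. *Scd1* reversed to -0.37 without *Brca1* knockout replicate 4, -0.07 without wild type replicate 1 and -0.20 without wild type replicate 2, and was 0.62 without wild type replicate 3. The median difference of replicate 3 from the others was -0.53 with median-of-ratios scaling, -0.65 with quantile normalization and -0.93 as a mean. Single members were followed through the alternatives only for *Fabp3*, *Scd1*, *Thrsp*, *Lpin1*, *Gpam* and *Elovl6*. Among these, 7 differences between the labels reversed, and 32 values moved over all results followed. Without replicate 3 some further members changed sign and others kept theirs. *Lpl* went from 0.35 to -0.64 and *Olah* from 1.46 to -0.19, while *Cd36* stayed positive. Among the moved, 2 role medians of replicate 3 also changed sign, triglyceride assembly to 0.07 as a mean and desaturation and elongation to 0.14 with median-of-ratios scaling. The causes were not tested. Depth is estimated only, and *Slc27a3* (13.6 fragments in replicate 4), *Mlxipl* and *Dgat2* rest on few. No paired analysis was possible because the labels share no replicate number between wild type and *Brca1* knockout.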
